A study of Petromyzon marinus with 6 samples.

Results

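Pairs of neighbouring loci that are transcribed from opposite strands and whose exons cover some of the same bases were examined in the brainstem of the sea lamprey, Petromyzon marinus. A pair was taken where the merged exons of both loci overlapped by at least 200 bp and where each locus had a mean raw count of at least 50 over the 6 samples. Loci in the study's lists of differentially expressed genes were left out, which removed 4 pairs. Of the 9942 pairs of loci on opposite strands whose exons overlapped by 1 bp or more, 965 pairs met the rule. They held 1862 of the 57134 loci in the table, of which 1796 stood in 1 pair, 64 in 2 pairs and 2 in 3 pairs, so that pairs sharing a locus are not independent. The members were selected on measured mean counts and on position, and their levels are given as a description. The loci carried no gene names and are given by their StringTie identifiers and their positions on contigs of the germline assembly Pmar_germline 1.0.

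Genes on opposite strands can run into each other at their 3′ ends (tail to tail), start from a shared stretch at their 5′ ends (head to head), or lie 1 within the other. A transcript read from the strand opposite to another transcript is called a natural antisense transcript. Antisense RNA is known in vertebrate nervous tissue, and in studied cases it can affect the transcription, stability or translation of its partner, while many overlapping genes are simply expressed side by side. A stranded library keeps the strand of each fragment, which is what lets the counts of the 2 loci be told apart where their exons coincide.

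All samples came from larvae aged 5 to 7 years from the river Ulla with a complete spinal cord transection. In the GABA group the animals were kept in water with GABA (γ-aminobutyric acid, the main inhibitory neurotransmitter of the vertebrate brain) at 500 µM, and in the control group in water without it. Each group had 3 samples, each pooling the RNA of 4 brainstems. The time of sampling is taken as 29 days post-lesion, from the methods, while the series text has 9 days. The p-values below measure the spread between these pools. The control animals carried the same lesion, so that no uninjured animals enter the comparison. The samples held 14666153, 13655132 and 13266414 counts in the GABA group, and 14248306, 12560944 and 12261374 counts in the control group. Loci of the pairs took between 14.95% and 15.6% of them. Of the neuronal markers fixed for checking the tissue, CPLX1 was at 824 to 1010 CPM (counts scaled to library size), while MAP6 stayed under 0.478 CPM. CARTPT was at 315 to 377 CPM in the GABA samples, against 391 to 432 CPM in the control samples, and GABRA5 at 89.7 to 105 CPM in the GABA samples, against 49.9 to 80.3 CPM in the control samples. The groups did not overlap at these 2 markers, and their part in the results was not tested. All markers were taken from the study's lists of differentially expressed genes, called on these samples or on its baclofen samples. A difference between the groups at such a marker is therefore no independent result. The glial and progenitor markers VIM and SoxE1 were at 493 to 763 CPM and 38.1 to 46.4 CPM. The blood and immune markers PTPRC, VLRA, TLR2 and CD62L lay between 0.571 and 19.5 CPM, so RNA of genes used by immune cells was present at a low level in all samples. In whole brainstems, fewer cells of a type and less RNA per cell cannot be told apart.

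Most of the overlapping pairs lay tail to tail by the order of their spans. The arrangement was taken from the starts and ends of the whole loci, and not from where their exons overlapped. Of the 965 pairs, 641 (66.4%) were tail to tail, 186 (19.3%) had the span of 1 locus inside that of the other, and 138 (14.3%) were head to head. Beside them, 4442 pairs of neighbouring loci on opposite strands were taken that met the same count minimum but whose spans did not overlap. These were tail to tail in 2050 cases (46.2%) and head to head in 2392 (53.8%). None of them could be nested, while the percentages of the overlapping pairs are of a total that includes the 186 nested ones. The exon overlap had a median of 1054 bp and ran from 201 to 6287 bp. It was shortest in head to head pairs, with a median of 441.5 bp, and longer in tail to tail pairs (1266 bp) and in nested pairs (1068 bp). In 628 pairs it was a single unbroken stretch. In 844 pairs both loci had 2 or more exon blocks, so that most pairs consisted of 2 spliced loci.

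**Figure D1:**
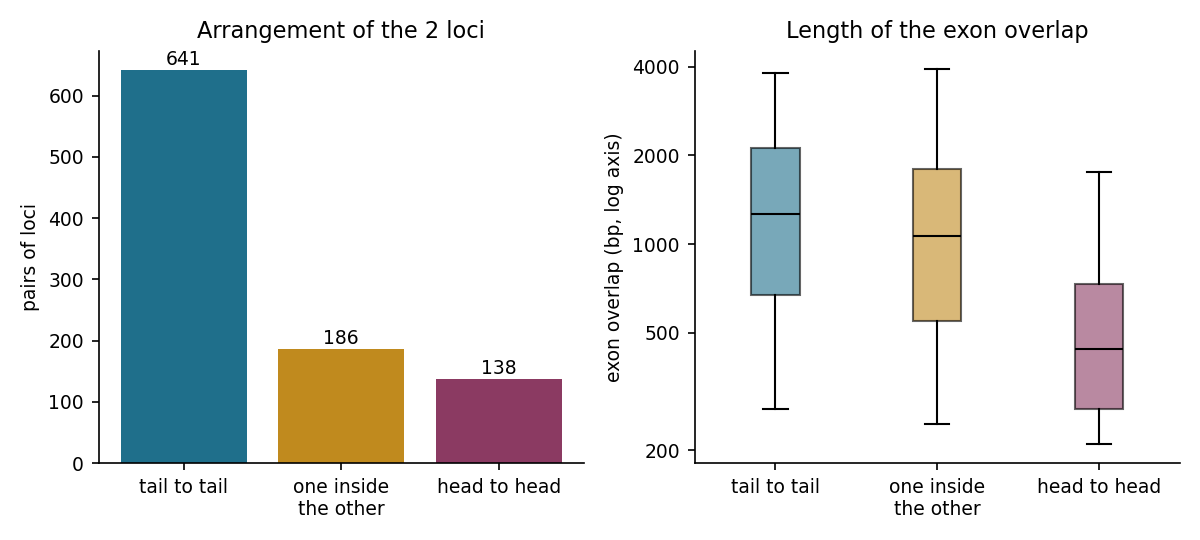
Number of pairs in each arrangement (left) and length of the exon overlap in bp on a log axis (right), with boxes for the quartiles, a line for the median and whiskers from the 5th to the 95th percentile of the pairs. The 641 tail to tail pairs outnumbered the 186 nested and 138 head to head pairs, and the head to head overlaps were the shortest, with a median of 441.5 bp.

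The counts belong to whole loci and not to the shared bases alone. In the median pair, the overlap took up 24.1% of the exon length of the locus with the lower count per kb and 25.1% of that of the other. In 16 pairs all exons of the lower locus lay within exons of its partner. The longest overlap, 6287 bp, joined MSTRG.21699 (contig PIZI01000033.1, 2716281 to 2728229) and MSTRG.21700 (2721262 to 2727692), of which the second was a single block with 97.8% of its length inside an exon of the first. MSTRG.21699 had 714, 679 and 763 normalized counts in GABA replicates 1, 2 and 3, against 742, 801 and 834 in the control replicates. Its partner MSTRG.21700 had 745, 636 and 706 in the GABA samples, against 604, 636 and 750 in the control samples. These are counts divided by the size factor of the sample, and the groups overlapped at both loci. The next 2 longest overlaps were tail to tail, with 6126 bp between MSTRG.6751 and MSTRG.6749 and 5848 bp between MSTRG.8696 and MSTRG.8695. Just inside the rule stood MSTRG.17607 and MSTRG.17608 with 201 bp of overlap, and just outside MSTRG.30441 and MSTRG.30449 with 199 bp. For the count minimum, the pair just inside was MSTRG.25909 and MSTRG.25907, whose lower mean was 50.2 counts, and the pair just outside was MSTRG.7153 and MSTRG.7154, with 49.5.

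The balance of a pair was measured as the share of the locus with the lower mean level, the minor locus, in the summed counts per kb of exon of both loci. The higher locus is called the major locus, and a share of 50% means equal levels per kb. The median share was 28.9%, with quartiles of 16.5% and 40.1% and a range of 0.206% to 49.97%. In 395 pairs (40.9%) the loci were within 2-fold of each other, and in 109 pairs (11.3%) they differed by more than 10-fold. Neighbours without overlap had a median share of 27.9%, with 38.5% within 2-fold and 12.3% over 10-fold. Overlapping and separate neighbours were thus spread over much the same range of balances, which was not tested. By arrangement the median share was 31.7% in head to head pairs, 26.6% in nested pairs and 28.8% in tail to tail pairs. The typical minor locus had a mean of 225 counts and the typical major locus 738.5 (medians over pairs).

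**Figure D2:**
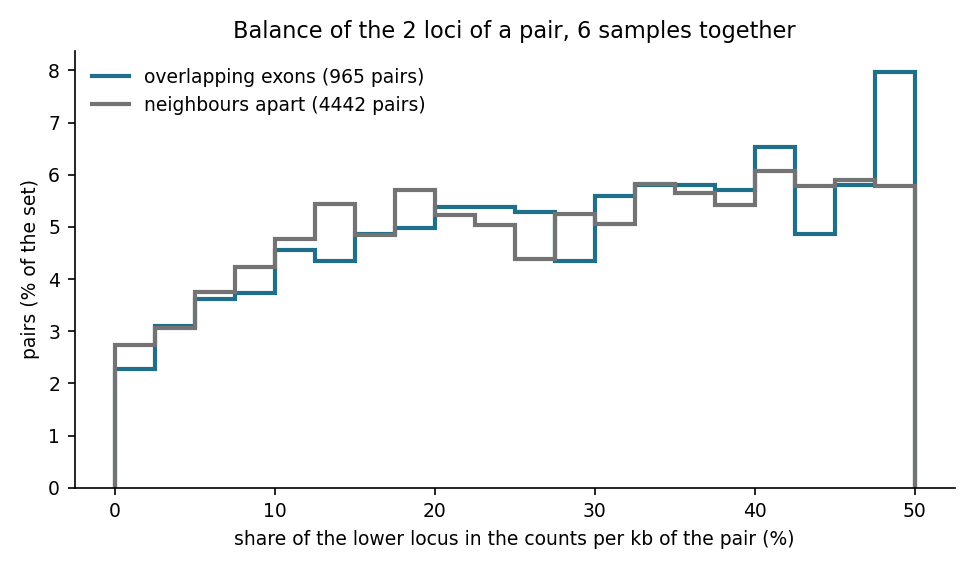
Share of the lower locus in the summed counts per kb of the pair, in percent, over all 6 samples, for the 965 pairs with overlapping exons and the 4442 neighbours whose spans lie apart. The vertical axis is the percentage of each set per bin, and the medians were 28.9% with overlap and 27.9% without.

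The order of the 2 loci was stable from sample to sample. In 848 pairs the major locus was the higher one per kb in all 6 samples, and in 117 the minor locus exceeded it in at least 1 sample. The median over pairs of the share was 28.7%, 28.4% and 28.5% in the GABA samples and 28.8%, 28.4% and 28.3% in the control samples. Within a pair, the share ranged over 5.82 percentage points between its lowest and highest sample in the median and over 48.2 points at most. The pair nearest to equality was MSTRG.10486 (contig PIZI01000013.1, 13999328 to 14011346) and MSTRG.10484 (13977058 to 14000386), which met tail to tail over 1059 bp. The share of MSTRG.10486 was 46.5%, 50.9% and 50.6% in the GABA samples, against 52.8%, 46.6% and 52.9% in the control samples, with overlapping groups. MSTRG.37988 with MSTRG.37987 and MSTRG.16671 with MSTRG.16670 were the next most even pairs, at 49.96% and 49.89%.

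At the other end stood 18 pairs with a share of at most 2%. Their major loci had means of 4087 to 114291 counts, and their minor loci had means of 57.8 to 792 counts. Since the rule held the minor locus to a mean of at least 50 counts, so low a share largely required an abundant major locus. The minor locus of MSTRG.21215 and MSTRG.21214 (contig PIZI01000032.1, 1647503 to 1688859 and 1647404 to 1650834) had the lowest share of all, 0.206%. MSTRG.21215 had 71.5, 53.5 and 88.7 normalized counts in the GABA samples, against 89.3, 133 and 139 in the control samples. MSTRG.21214 had 53460, 43828 and 49243 in the GABA samples, against 52207, 57742 and 63364 in the control samples. The minor locus did not overlap between the groups and the major locus did. Of the exon length of MSTRG.21215, 95.8% lay within exons of MSTRG.21214, in 4 stretches.

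Their levels moved together over the 6 samples, with a Pearson r of 0.91 (exact permutation p = 0.0194, Benjamini-Hochberg adjusted p = 0.525) and a Spearman rho of 0.77 (exact permutation p = 0.103, adjusted p = 0.772). Without the 2 samples farthest from the median r was 0.68, and with the group means taken out it was 0.79. The most abundant locus of any pair, MSTRG.7078, with a mean of 114291 counts (contig PIZI01000008.1, 17745307 to 17747284), had a minor partner, MSTRG.7076, with a share of 0.208%. The second most abundant, MSTRG.7700 (contig PIZI01000009.1, 12429275 to 12438958, mean 98285), had 2 minor partners on the other strand, MSTRG.7701 and MSTRG.7702, with shares of 0.480% and 0.379%. The values of r were 0.49 for MSTRG.7076, 0.65 for MSTRG.7701 and 0.82 for MSTRG.7702, each with its partner. With the group means taken out they were 0.12, 0.37 and 0.66. Without the 2 farthest samples they were −0.0063, 0.71 and −0.057. Over the 18 pairs the median r was 0.47, with 14 above 0, and the median minor locus had 48.9% of its exon length inside the major locus. In the other 947 pairs the median r was 0.18 and that proportion was 23.8%. How far fragments of an abundant locus were counted on the opposite strand was not tested.

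The same exon ends can also appear on both strands. Pairs in which an inner exon end of 1 locus fell on the same base as an inner exon end of the other numbered 48, and their median r was 0.34, against 0.18 in the other pairs. The number of shared ends was 4 or more in 6 pairs and 7 at most. MSTRG.50920, with 99.4% of its exon length inside MSTRG.50919, shared 7 ends with it and had 38, 82 and 75 raw counts in the GABA samples, against 65, 66 and 27 in the control samples. MSTRG.50919 had 272, 409 and 279 in the GABA samples, against 359, 316 and 292 in the control samples. MSTRG.19608, whose exons all lay within those of MSTRG.19605, also shared 7 ends and had a mean of 52.2 counts, against 3761 for its partner. Over these 6 pairs r ran from −0.72 to 0.75 and was above 0 in 5. Whether these ends carry splice motifs of either strand was not tested.

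The 2 loci of a pair varied together only weakly across samples. Correlations were taken over the log2 CPM of the 6 samples, which span both groups. The median Pearson r was 0.19, with quartiles of −0.19 and 0.53, and 606 pairs (62.8%) were above 0. In the neighbours whose spans did not overlap the median was 0.10 with 57.1% above 0, and over every pair among 15046 loci that met the count minimum the mean r was 0.0053. The mean over the overlapping pairs was 0.15 and over the neighbours 0.083. Overlapping pairs thus lay somewhat higher than neighbours, which is given as a description. Leaving out control replicate 3 lowered the median of the overlapping pairs to 0.12, against 0.063 in the neighbours, and leaving out control replicate 2 gave 0.26 and 0.11.

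Correlations were also described by arrangement. The median r was 0.34 in head to head pairs, 0.27 in nested pairs and 0.14 in tail to tail pairs. In neighbours without overlap, head to head pairs had a median of 0.095 and tail to tail pairs 0.11, and for those within 1000 bp of each other the medians were 0.18 and 0.12. The less abundant locus of a pair had a median count of 212 in head to head, 141 in nested and 229 in tail to tail pairs, and the part of depth in these values was not tested. The 815 neighbours whose spans overlapped but whose exons did not had a median of 0.069. With the group means taken out, the medians were 0.27 in head to head pairs, 0.35 in nested pairs and 0.17 in tail to tail pairs, and 0.078 and 0.10 in head to head and tail to tail neighbours. The order of head to head and nested pairs thus depended on whether the group means were taken out, while tail to tail pairs had the lowest median of the overlapping pairs in both. No test was made of these differences.

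**Figure D3:**
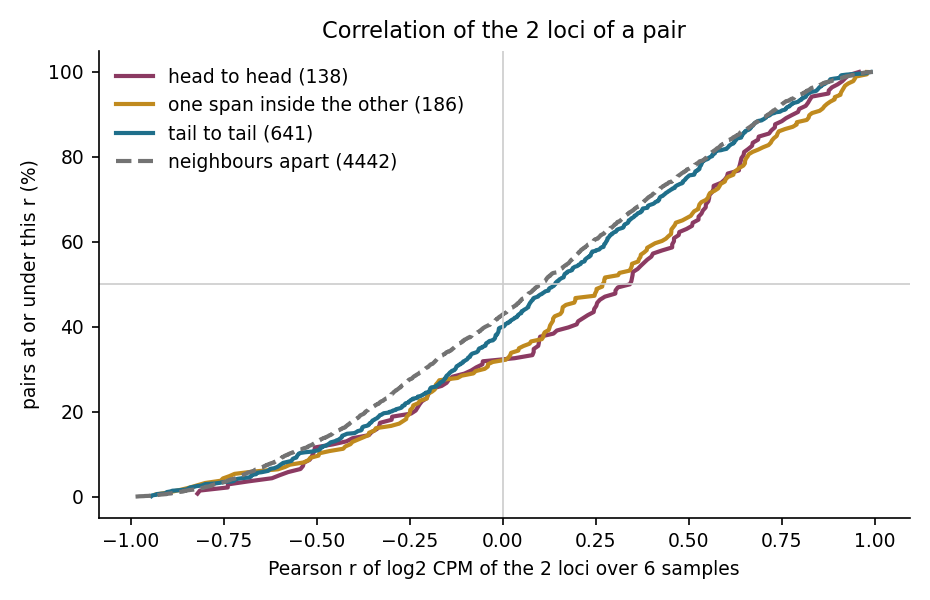
Cumulative percentage of pairs at or under each Pearson r of the log2 CPM of the 2 loci over 6 samples, for the 138 head to head, 186 nested and 641 tail to tail pairs with overlapping exons and the 4442 neighbours apart. The curves cross 50% at 0.34, 0.27, 0.14 and 0.10 in that order.

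For single pairs, 6 samples allowed few firm statements. Of the 965 pairs, 68 had a positive r at an exact permutation p under 0.05 (7.05%, against 5.82% of the 2404 pairs of opposite loci with exon overlap that were tested), and 21 had a negative one (2.18%, against 1.91%). None passed after Benjamini-Hochberg adjustment over the 2404 pairs, with a smallest adjusted p of 0.477 by the exact permutation test for r and for rho alike. With 6 samples this p cannot fall under 0.00139 for r or 0.00278 for rho. A pass over 2404 pairs would have needed many pairs at that floor. That none passed was thus largely fixed by the number of samples and says little about single pairs. The background contains the members, and among the other 1439 pairs the shares were 5.00% and 1.74%. The smaller mean count of a pair had a median of 208 counts in the members and 23 in the other pairs, so that depth differed between them.

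Among the highest correlations of the deviations from the group means, MSTRG.32831 (contig PIZI01000062.1, 3869666 to 4906156) appeared in 2 pairs, with MSTRG.32824 (3428675 to 4622644) and with MSTRG.32825 (3439095 to 4355450) on the opposite strand. MSTRG.32825 had 73.3, 121 and 126 normalized counts in the GABA samples, against 88.3, 93.8 and 70.6 in the control samples. MSTRG.32831 had 522, 664 and 666 in the GABA samples, against 551, 568 and 518 in the control samples. GABA replicates 2 and 3 were the highest at both loci, and GABA replicate 1 and control replicate 3 the lowest. The pair had r = 0.99 (exact permutation p = 0.00278, adjusted p = 0.477) and rho = 0.94 (exact permutation p = 0.0167, adjusted p = 0.549), and r was 0.995 without the 2 farthest samples. Another pair of this kind was MSTRG.11699 inside the span of MSTRG.11697. It had r = 0.87 (exact permutation p = 0.00556, adjusted p = 0.477) and rho = 0.89 (exact permutation p = 0.0333, adjusted p = 0.581). These r and rho were taken without removing the group means, as was an r of 0.84 for MSTRG.32824 with MSTRG.32831. The correlation of the deviations was 0.993 for MSTRG.11699, 0.992 for MSTRG.32824 and 0.991 for MSTRG.32825, each with its partner.

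Opposed variation was seen in MSTRG.17912 (contig PIZI01000026.1, 4579800 to 4638439) and MSTRG.17913 (4636030 to 4651887), which overlapped tail to tail by 2410 bp. MSTRG.17912 had 292, 346 and 318 normalized counts in the GABA samples, against 333, 349.5 and 284 in the control samples. MSTRG.17913 had 920, 804 and 881 in the GABA samples, against 869, 801 and 946 in the control samples. Every sample that was higher for 1 locus was lower for the other, with rho = −1 (exact permutation p = 0.00278, adjusted p = 0.477) and r = −0.94 (exact permutation p = 0.0125, adjusted p = 0.506), and both groups took part in this. MSTRG.20336 with MSTRG.20343 and MSTRG.13482 with MSTRG.13481, also tail to tail, had r of −0.93 and −0.90 (exact permutation p = 0.0139 and 0.0194, adjusted p = 0.506 and 0.525). All of these pairs were picked for their extreme values among 965.

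The balance between the strands differed little between GABA-treated and control animals. Over the 965 pairs, the mean log2 ratio of minor to major locus had an SD of 1.42 in the GABA samples and 1.43 in the control samples. With that spread between pairs, the Pearson r of 0.989 and Spearman rho of 0.979 between the groups over pairs describe the order of the pairs and not the size of the change. The median log2 change of this ratio in GABA was 0.02, with an SD of 0.21 over pairs, and the median within-group SD of the ratio was 0.17. The change was above 0 in 539 pairs (55.9%, against 56.2% of all pairs tested) and below 0 in 426. Over all pairs tested its median was 0.03. The change was larger than 0.5 either way in 32 pairs and larger than 1 in 2.

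**Figure D4:**
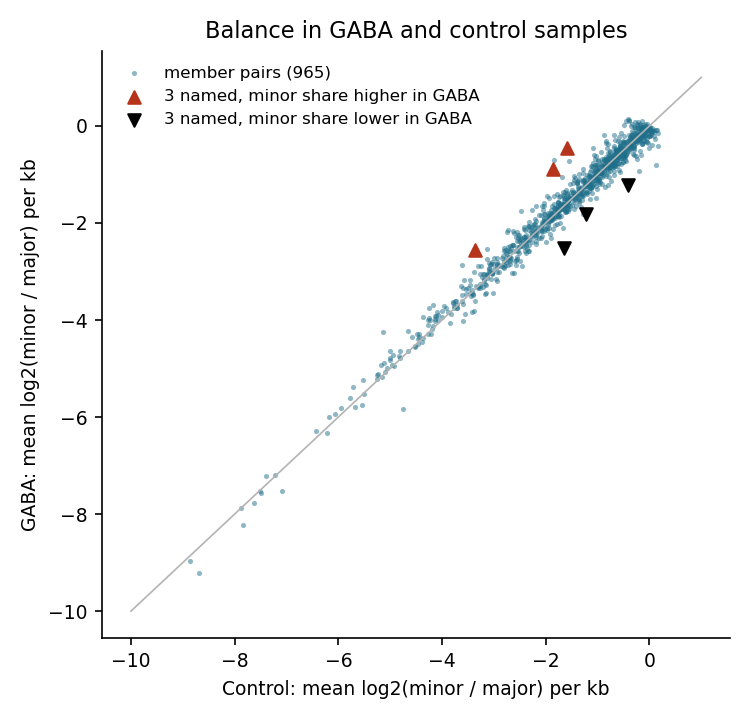
Mean log2 ratio of the minor to the major locus per kb in the 3 GABA samples (vertical) and the 3 control samples (horizontal) for the 965 pairs, with the line of equality. Triangles mark the named pairs whose minor share was higher (3, red) or lower (3, black) in GABA; Pearson r over all pairs was 0.989.

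The change of balance was tested within samples, which takes out library size. edgeR's quasi-likelihood test over the 2404 pairs called 0 of the 965 (0% of all pairs tested) at a Benjamini-Hochberg adjusted p under 0.05, with a smallest adjusted p of 0.403. At an unadjusted p under 0.05, the minor share was higher in GABA in 45 pairs (4.66%, against 4.37% of all pairs tested) and lower in 17 (1.76%, against 2.5%). Without GABA replicate 1, the number with a lower share was 10. limma on log2 ratios and DESeq2 on the same layout also called 0, with 33 higher and 15 lower pairs at an unadjusted p under 0.05 in limma and 23 and 11 in DESeq2. For these alternatives and for the fits with 1 sample left out, the shares over all pairs tested are not given. Their counts therefore do not compare the members with other pairs. The log2 ratios of the groups did not overlap in 91 pairs with a higher minor share in GABA (9.43%, against 7.82%) and in 39 with a lower one (4.04%, against 4.24%). The background contains the members. Among the other 1439 pairs, 4.17% had a higher and 2.99% a lower minor share at an unadjusted p under 0.05, and the groups did not overlap in 6.74% with a higher and 4.38% with a lower minor share. The differences between these sets of pairs were not tested. By arrangement, an unadjusted p under 0.05 was reached by 40 tail to tail (6.24%), 11 nested (5.91%) and 11 head to head pairs (7.97%). Over the 965 pairs it was 6.42% for both directions together. Over all pairs tested it was 4.37% higher and 2.5% lower, so the arrangements lay near the background and were not compared by a test.

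The largest value for a higher minor share in GABA belonged to MSTRG.38590 (contig PIZI01000135.1, 129360 to 138251, minus strand, 5 exon blocks), whose span held the single-block MSTRG.38591 (133563 to 135160). The share of MSTRG.38590 was 38.5%, 44.3% and 43.3% in the GABA samples, against 25.9%, 29.7% and 19.3% in the control samples. The groups did not overlap, with means of 42.0% ± 3.08 in GABA and 25.0% ± 5.23 in control samples (SD, n = 3 each). The log2 change was 1.10 ± 0.25 (SE, edgeR adjusted p = 0.403). With 47, 64 and 27 raw counts in the control samples, MSTRG.38590 met the count minimum only through the GABA samples. Its change is therefore not independent of the selection. The counts of MSTRG.38591 overlapped between the groups, with 169, 156 and 185 normalized counts in GABA and 168, 215 and 171 in control samples.

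In MSTRG.17470 (contig PIZI01000025.1, 6913047 to 6924943) and MSTRG.17471 (6924398 to 6933755), which met tail to tail over 546 bp, the share of MSTRG.17470 was 29.8%, 48.1% and 28.2% in the GABA samples, against 23.3%, 22.3% and 19.5% in the control samples. All GABA samples were above all control samples, and GABA replicate 2 stood far above the other two. The log2 change was 0.97 ± 0.28 (SE, edgeR adjusted p = 0.471) and 0.55 without that replicate. MSTRG.42672, 1 block nested in MSTRG.42671 (contig PIZI01000366.1, 65427 to 69434 and 64371 to 72822), had a share of 14.2%, 15.5% and 13.5% in the GABA samples, against 9.06%, 7.05% and 10.4% in the control samples. Its log2 change was 0.79 ± 0.20 (SE, edgeR adjusted p = 0.403), again without overlap between the groups. With 49, 35 and 54 raw counts in the control samples, MSTRG.42672 also met the count minimum only through the GABA samples. The same limit holds for its change.

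In the other direction, 3 pairs were named. MSTRG.19620 (contig PIZI01000029.1, 3725487 to 3731156), head to head with MSTRG.19614 (3591065 to 3730674), had a share of 14.1%, 17.9% and 12.9% in the GABA samples, against 24.6%, 28.97% and 19.7% in the control samples. MSTRG.30699 (contig PIZI01000054.1, 2500336 to 2524407), tail to tail with MSTRG.30698 (2465055 to 2501652), had 31.4%, 30.8% and 27.8% in the GABA samples, against 46.7%, 47.8% and 34.7% in the control samples. MSTRG.9065 (contig PIZI01000011.1, 9663313 to 9669489), tail to tail with MSTRG.9064 (9646127 to 9664334), had 20.4%, 22.8% and 23.0% in the GABA samples, against 29.02%, 26.9% and 33.7% in the control samples. In each of these pairs the groups did not overlap. Their log2 changes were −0.88 ± 0.22, −0.83 ± 0.22 and −0.59 ± 0.19 (SE, edgeR adjusted p of 0.403, 0.403 and 0.502).

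**Figure D5:**
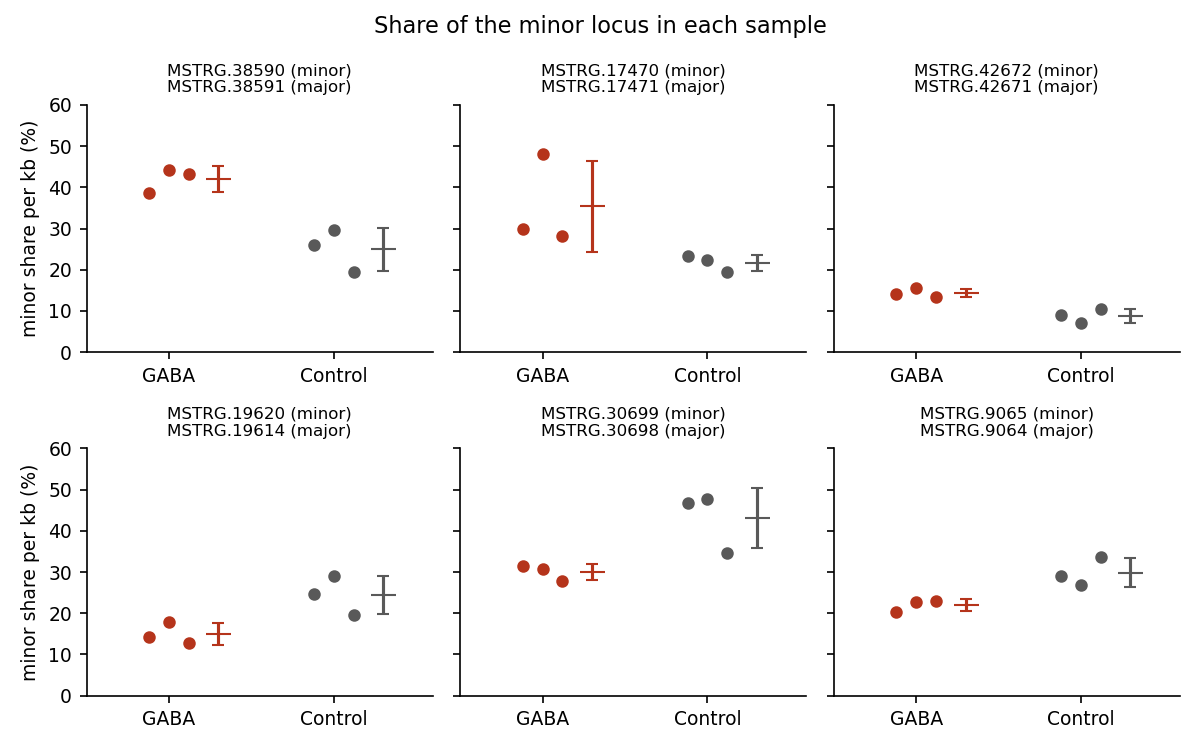
Share of the minor locus in the counts per kb of the pair, in percent, in each GABA and control sample of the 6 pairs named for their balance, with mean and SD (n = 3 each) beside the points. The upper row had higher shares in GABA, such as 38.5% to 44.3% against 19.3% to 29.7% for MSTRG.38590, and the lower row had lower ones. MSTRG.38590 and MSTRG.42672 met the count minimum only through the GABA samples.

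Taken locus by locus, the 1862 members also gave no call. edgeR's quasi-likelihood test over 24300 loci found 0 of them (0% of all loci tested) at an adjusted p under 0.05, with a smallest adjusted p of 0.504. DESeq2 found 0 as well, but the study called its lists with DESeq2 and the rule left those loci out. The DESeq2 count was therefore largely fixed by the rule. All 1862 had passed the count filter. At an unadjusted p under 0.05, 31 were higher in GABA (1.66%, against 3.08% of all loci tested) and 104 were lower (5.59%, against 3.47%). DESeq2 gave 14 (0.752%) and 89 (4.78%), against 1.41% and 3.97% of the other loci that met the count minimum. Without overlap between the groups, 62 loci were higher in GABA by normalized counts (3.33%, against 5.14%) and 183 were lower (9.83%, against 7.06%). The loci of the study's lists, chosen on these samples or on those of its baclofen experiment, are absent from the members and present in the background.

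The split between higher and lower values moved with the scaling of the libraries, which shifts all loci alike. Of the members at an unadjusted p under 0.05, 77.0% were lower in GABA with TMM, against 61.3% in the 13094 other loci that met the count minimum (359 higher and 569 lower). With library size only, the members had 63 higher and 54 lower loci, so that 46.2% were lower, against 32.2% in the other loci (637 higher and 302 lower). The members thus held a larger proportion of lower loci than the others under both scalings, which was not tested. The median log2 fold change was −0.03 in members and −0.01 in the other loci with TMM, and 0.01 and 0.03 with library size only. Over all loci tested it was 0.01 with TMM and 0.05 with library size only, and −0.03 with TMM in tested loci with a mean of at least 400. Without GABA replicate 2, 50 members were lower (2.69%, against 2.67% of the other loci). Without control replicate 3, 68 were lower (3.65%, against 3.85%). These are shares of all members and of all other loci, and the larger share in the members was not kept there. With any other sample left out, lower loci were a larger share of all members than of all other loci. Of the loci at an unadjusted p under 0.05 in edgeR, 67.6% of the members were lower without GABA replicate 2, against 60.3% of the others. Without control replicate 3 this was 70.8%, against 66.8%, and these differences were not tested. Without GABA replicate 1, 54 members were higher (2.90%, against 4.49%). The median log2 fold change was −0.04 for major and −0.01 for minor loci.

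MSTRG.23764 (contig PIZI01000037.1, 6400157 to 6411558) had the smallest p among the loci that were higher in GABA. It had 372, 317 and 381 normalized counts in the GABA samples, against 227, 216 and 270 in the control samples, without overlap. The log2 fold change was 0.60 ± 0.11 (SE, edgeR adjusted p = 0.504). Its tail to tail partner MSTRG.23763, which shared 2369 bp with it, had 152, 116 and 116 in the GABA samples, against 132, 110 and 118 in the control samples, with overlapping groups. MSTRG.38590 and MSTRG.17470 followed, with log2 fold changes of 0.97 and 0.95 (edgeR adjusted p = 0.718 for each). Of these, MSTRG.38590 met the count minimum only through the GABA samples. MSTRG.17470 lay between 2 partners, and MSTRG.17469, head to head with it over 681 bp, had 59.8, 138 and 91.6 normalized counts in the GABA samples, against 52.6, 54.4 and 62.7 in the control samples. GABA replicate 2 was the highest sample at both of these loci. The log2 fold change of MSTRG.17470 was 0.53 without that replicate.

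The 3 smallest p among loci that were lower in GABA belonged to tail to tail pairs. MSTRG.18392 (contig PIZI01000027.1, 367806 to 532652) had 550, 532 and 566 normalized counts in the GABA samples, against 676, 704 and 727 in the control samples. MSTRG.24561 (contig PIZI01000039.1, 688455 to 693509) had 1413, 1256 and 1348 in the GABA samples, against 1616, 1712 and 1662 in the control samples. MSTRG.31040 (contig PIZI01000055.1, 2451488 to 2471185) had 1666, 1632 and 1602 in the GABA samples, against 1906, 2041 and 2013 in the control samples. In none of these loci did the groups overlap, and the log2 fold changes were −0.34, −0.30 and −0.27 (edgeR adjusted p of 0.575, 0.6001 and 0.6001). The partner MSTRG.24563 had 1107, 1058 and 1067 in the GABA samples, against 1056, 1087 and 1131 in the control samples, so that it overlapped between the groups while MSTRG.24561 did not.

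The direction of the 2 loci of a pair was the same in 524 pairs (54.3%), against 53.8% of the neighbours without overlap. Both loci had a negative log2 fold change in 350 pairs and a positive one in 174. These signs were taken with TMM and depend on the scaling. The median log2 fold change of the members was −0.03 with TMM and 0.01 with library size only. The same split is not given for the neighbours. In 9 pairs (0.933%) both loci were at an unadjusted p under 0.05 in edgeR, with the same sign in 8, against 17 neighbours (0.383%) with the same sign in 15. The share over all pairs tested is not given for this count. The difference from the neighbours rests on few pairs and was not tested.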

How the data were processed

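The libraries of the 3 GABA and 3 control samples were paired-end, keep the strand and were made from polyadenylated mRNA. After trimming, the authors aligned reads with STAR to Pmar_germline 1.0, built loci with StringTie from their samples and deposited the counts of fragments per locus from featureCounts, with the strand taken into account. Both ends had to map, and chimeric fragments were dropped. These counts were whole numbers without normalization. All 6 columns matched a sample by title. In the table, 2 loci broken over 2 lines were rejoined. A fragment that falls on exons of both strands is given to the strand it was read from.

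Exons were merged per locus and pairs found from the positions, counting from 1. The per-locus test was the two-sided quasi-likelihood test of edgeR 4.0.16 in R 4.3.3, after filterByExpr and TMM, at a Benjamini-Hochberg adjusted p under 0.05. The balance was tested in edgeR on 12 columns, the count of each strand in each sample, with terms for sample, strand and strand by condition. The SE given with an edgeR log2 change was worked back from the test. It is the absolute log2 change divided by the square root of the quasi-likelihood F statistic. The log2 ratios used for display had 0.5 added to each count. Alternatives used DESeq2 1.42.0, whose independent filtering was at its default of 0.1, and limma 3.58.1. Other settings dropped the count filter or set it at a mean of 100, scaled by DESeq2 size factors or by library size alone, moved the minima of the rule, or used the replicate number as a block, and each sample was left out in turn. Log2 CPM values had a prior count of 2. Exact permutation p of r and rho went over all 720 pairings of the 6 samples, with a smallest possible p of 0.00139 for r and 0.00278 for rho. They were adjusted over the 2404 pairs tested, although the plan had been to adjust over the members. Normalized counts were divided by DESeq2's size factors, between 0.878 and 1.10. With 3 samples against 3, the smallest two-sided p of an exact permutation test is 0.1. The fits were tested on simulated counts. Figures were drawn with matplotlib 3.10.9, and descriptions came from scipy 1.17.1 and pandas 2.3.3 under Python 3.11.15.

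The named pairs were the 3 with the longest overlap, the 3 with the highest summed counts, the 3 most and 3 least even, the 3 with the largest change of balance in each direction among the 50 smallest p, the 3 highest and 3 lowest correlations of deviations from group means, and the pairs at each threshold. The named loci had the 3 smallest p in each direction. The pairs with 4 or more shared exon ends were chosen after their values were seen. The members, lists and tests were chosen with earlier results of these data known. No sequence is printed, since no genome of this build was used here.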

Additional observations from a re-analysis of the deposited data

How the results depend on the processing

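The count of members called was 0 in the edgeR per-locus and balance tests under the alternatives tried, except without the filter on low counts. Without that filter 2 loci (MSTRG.23764 and MSTRG.17470) and the balance of 3 pairs had an adjusted p under 0.05 in edgeR, and the cause was not tested. The shares called over all loci and all pairs without that filter are not given. These counts therefore do not compare the members with other loci or pairs. The median share was 25.5% with raw counts in place of counts per kb, 29.5% with a minimum overlap of 500 bp, 29.9% with a minimum mean count of 100, and 28.7% to 29.1% with 1 sample left out. The rule gave between 738 and 1329 pairs under other minima. The median r ran from 0.12 to 0.26 with 1 sample left out. With the replicate number as a block, which leaves 2 dimensions among the 6 samples, it was 0.47, and 0.20 in neighbours without overlap. The block left both counts of calls at 0. Same-numbered samples had correlations of −0.11, 0.03 and −0.12 of their deviations, and differently numbered ones ran from −0.08 to 0.17. With 3 samples per group these values cannot tell whether the numbers pair the samples. The log2 changes of the 12 named tests kept their direction throughout. They were picked for small p from these same data, and their groups did not overlap. Leaving out 1 sample could therefore hardly reverse them, so the kept direction is no support. Minor loci with about 50 counts limit the precision of a share more than their major partners do.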

Other observations

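Some pairs changed their balance between samples of the same group, and these were chosen after their values were seen. MSTRG.34176 and MSTRG.34177, head to head over 1979 bp, had the widest range, with a share of MSTRG.34176 of 17.0%, 51.4% and 46.5% in the GABA samples, against 40.3%, 50.4% and 65.2% in the control samples. Its raw counts were 124, 488 and 406 in the GABA samples, against 282, 467 and 702 in the control samples, while MSTRG.34177 stayed between 293 and 473. GABA replicate 1 was the lowest sample for 1 locus and the highest for the other. In MSTRG.38457 and MSTRG.38458, tail to tail over 907 bp, the share of MSTRG.38457 was 49.6%, 49.8% and 18.6% in the GABA samples, against 11.1%, 38.4% and 34.003% in the control samples. The groups overlapped in both pairs.

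MSTRG.11470, the major partner of MSTRG.11472, varied widely between samples, with 6353, 7097 and 3312 raw counts in the GABA samples, against 830, 8055 and 2186 in the control samples. MSTRG.11472 stayed at 345, 355 and 313 in the GABA samples, against 352, 394 and 256 in the control samples. Its share was therefore 10.5% in control replicate 1 and between 1.34% and 3.14% in the other 5 samples. The log2 change of the balance was −1.02 (edgeR adjusted p = 0.819), and it is 1 of the 2 pairs with a change larger than 1. Without the filter on low counts, the balance of this pair, of MSTRG.17470 and MSTRG.17471, and of MSTRG.34177 and MSTRG.34176 had an adjusted p under 0.05 in edgeR. With the filter, the log2 change for MSTRG.34176 and MSTRG.34177 was −0.85 (edgeR adjusted p = 0.836), with overlapping groups.

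In MSTRG.49897 and MSTRG.49898, which shared 5 inner exon ends and ran head to head, the share of MSTRG.49897 was 52.8%, 52.5% and 49.5% in the GABA samples, against 40.3%, 44.5% and 44.9% in the control samples. The groups did not overlap, and the log2 change was 0.49 (edgeR adjusted p = 0.811).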
